A study of Mus musculus with 2 samples.

Results

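The MEF2 factors, serum response factor, myocardin and the class IIa histone deacetylases that bind MEF2 were described in neonatal mouse heart. The members were named by symbol: Mef2a, Mef2b, Mef2c, Mef2d, Srf, Myocd, Hdac4, Hdac5 and Hdac9. These are 9 of the 55536 mouse genes in the gene table, and they have 107 annotated transcripts. The rule names symbols and uses no measured value, but the members were chosen with earlier results of these data known. Total RNA was sequenced from the hearts of male mice of 4 days of age, of the strain B6CASTF1/J, the F1 hybrid of C57BL/6J and CAST/EiJ, supplied by The Jackson Laboratory and given no treatment in the labels. The 2 libraries form 1 group and are numbered biological replicates 1 and 2. The labels number the animals differently but cite the same donor record for both, so that the spread between the libraries may be technical in part. With 1 group there is no contrast between conditions, and no test or p-value is given.

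MEF2 proteins bind DNA through a MADS domain joined to a MEF2 domain and drive muscle gene expression. SRF, another MADS-box factor, binds the CArG box, and myocardin is its coactivator in cardiac and smooth muscle. Class IIa histone deacetylases bind MEF2 and repress its targets. When kinases such as CaMKII, protein kinase D or the salt-inducible kinases phosphorylate them, they bind 14-3-3 proteins and are kept in the cytoplasm.

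In mm10, the MEF2 genes lie apart, Mef2a at chr7:67231163-67372858 (minus strand), Mef2b at chr8:70139711-70167488 (plus strand), Mef2c at chr13:83504034-83667080 (plus strand) and Mef2d at chr3:88142372-88172086 (plus strand). Srf lies at chr17:46548329-46556175 (minus strand) and Myocd at chr11:65176561-65269989 (minus strand). The deacetylase genes are Hdac4 at chr1:91928779-92195699 (minus strand), Hdac5 at chr11:102194432-102230166 (minus strand) and Hdac9 at chr12:34047580-34917095 (minus strand).

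The gene-level counts summed to 31512596 in replicate 1 and 35744013 in replicate 2. Spike-in RNA took 0.588% and 0.545% of all counts. All 8 cardiomyocyte markers were expressed, with summed levels of 25953 and 24034 TPM, an abundance relative to transcript length and to all transcripts of the library. None of 6 skeletal muscle markers reached a TPM of 1 in both libraries, and Myod1 was listed at 0. The 3 red cell genes were higher in replicate 2, at a summed 939 and 3554 TPM, and the 6 smooth muscle markers summed to 515 and 798 TPM. The 4 fibroblast markers summed to 454 and 594 TPM and the 4 endothelial markers to 288 and 261 TPM. The 4 macrophage markers summed to 16.4 and 18.4 TPM, and 1 of 5 neuron markers was expressed. The share of the 16271 genes that passed the filter on low counts and differed by over 1.5-fold between the libraries was 12.3%, and 3.06% differed by over 2-fold. Among genes with a mean of 500 counts or more the 1.5-fold share was 3.39%. In a bulk tissue, fewer cells of a type and less RNA per cell cannot be told apart.

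The sequences that distinguish the transcripts of these genes are given first, as the reference genome (mm10, GENCODE M21 transcripts) has them; alleles of CAST/EiJ were not read. In Mef2a, Mef2c and Mef2d, the third coding exon, which follows the exons of the DNA-binding domains, comes in 2 versions that lie side by side in the genome. The upstream versions read, 5′ to 3′:

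Mef2a upstream, 132 bases, chr7:67268269-67268400, minus strand: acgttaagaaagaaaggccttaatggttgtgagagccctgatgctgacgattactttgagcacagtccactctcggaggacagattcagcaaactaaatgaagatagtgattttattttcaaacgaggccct
Mef2c upstream, 144 bases, chr13:83625265-83625408, plus strand: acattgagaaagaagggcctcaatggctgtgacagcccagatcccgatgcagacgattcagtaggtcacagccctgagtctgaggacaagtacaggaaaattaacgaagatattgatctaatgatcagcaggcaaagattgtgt
Mef2d upstream, 138 bases, chr3:88158034-88158171, plus strand: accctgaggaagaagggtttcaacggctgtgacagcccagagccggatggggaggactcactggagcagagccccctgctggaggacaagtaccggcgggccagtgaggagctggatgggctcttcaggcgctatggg

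The downstream versions of Mef2c and Mef2d follow:

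Mef2c downstream, 138 bases, chr13:83625470-83625607, plus strand: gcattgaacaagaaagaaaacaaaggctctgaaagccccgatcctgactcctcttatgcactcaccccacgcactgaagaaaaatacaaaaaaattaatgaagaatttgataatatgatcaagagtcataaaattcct
Mef2d downstream, 135 bases, chr3:88158221-88158355, plus strand: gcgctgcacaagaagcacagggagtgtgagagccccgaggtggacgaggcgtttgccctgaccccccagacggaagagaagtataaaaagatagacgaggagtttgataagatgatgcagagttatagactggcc

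The downstream exons of Mef2c and Mef2d shared 65.2% of aligned bases. The upstream exons shared 65.3% between Mef2a and Mef2c, 54.3% between Mef2a and Mef2d and 63.9% between Mef2c and Mef2d. Within a gene, the upstream and downstream exons shared 62.5% in Mef2c and 51.4% in Mef2d. In Mef2c both comparisons of the downstream exon have 90 identical bases, over 138 and 144 aligned columns.

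A further short coding exon, known to be included mostly in striated muscle and brain, lies nearer the 3′ end of the coding sequence. It is shown because its inclusion differed most between the 3 genes; capitals mark the 7 bases at which Mef2a and Mef2c differ:

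Mef2a short exon, 24 bases, chr7:67244521-67244544, minus strand: tcGgaggaAgAggaATtgGAgttg
Mef2c short exon, 24 bases, chr13:83654598-83654621, plus strand: tcTgaggaTgTggaTCtgCTgttg
Mef2d short exon, 21 bases, chr3:88161781-88161801, plus strand: actgaggaccatttagatctg

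**Figure D1:**
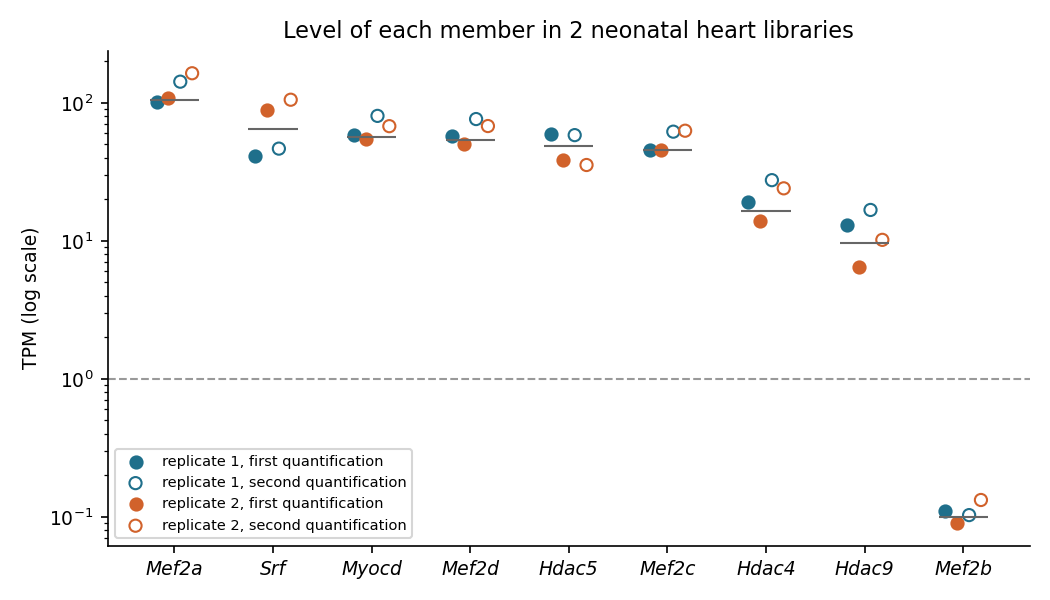
Level of the 9 genes in TPM on a log axis, with replicate 1 in blue and replicate 2 in orange; filled points are the first quantification, open points the second, short lines the mean of the filled points and the dashed line a TPM of 1. Mef2a stands highest in both libraries and Mef2b near 0.1; the 2 replicates of Srf, Hdac5 and Hdac9 stand apart.

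Among the MEF2 genes, 3 of 4 reached a TPM of 1 in each library and are called expressed, and of all 9 genes 8 were; over nuclear protein-coding genes the share was 53.8%. Mef2a, a ubiquitous MEF2 gene abundant in heart, was at 101 TPM in replicate 1 and 108 in replicate 2 (mean 104 ± 4.96, SD, n = 2), from 9832 and 12543 counts. It ranked 656th of 11854 expressed nuclear protein-coding genes. Mef2d, also broadly expressed, was at 57.2 and 50.2 TPM (mean 53.7 ± 4.94, SD, n = 2), from 5572 and 6021 counts. Mef2c, required for the looping heart and the right ventricle in the embryo, was at 45.2 and 45.3 TPM (mean 45.3 ± 0.0707, SD, n = 2), from 3357 and 3637 counts. In TPM, the 2 libraries lay close together for all 3 genes. Mef2b, which is known mainly from lymphoid cells, was at 0.11 and 0.09 TPM. It had 3 counts in each library, equal to the limit that a count of 0 allows (0.0952 and 0.0839 CPM), did not pass the filter on low counts, and is given no fold. The 5 B cell markers were also low, none at a TPM of 1 in both libraries, with a summed 2.52 and 2.21 TPM.

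The 4 MEF2 genes summed to 203 TPM in replicate 1 and 204 TPM in replicate 2. Mef2a made up 51.3% ± 2.42 of this sum, Mef2d 26.4% ± 2.44 and Mef2c 22.2% ± 0.0270 (SD, n = 2). Mef2a was at 2.23 and 2.38 times the level of Mef2c in the 2 libraries. The second deposited quantification, which was made from the reads without the transcriptome alignment, gave Mef2a 53.2% ± 3.44 of the MEF2 sum.

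Srf was the member that differed most between the libraries. It was at 41.3 TPM in replicate 1 and 88.2 TPM in replicate 2 (mean 64.7 ± 33.1, SD, n = 2), from 2079 and 5362 counts. Replicate 2 was thus the higher, and Srf ranks above or below myocardin depending on the library. After TMM scaling the ratio was 1.25 on the log2 scale, or 2.38-fold, with a 95% counting interval of 1.18 to 1.32. Counting error therefore does not cover the difference; the interval holds no variation between animals. Of the 16271 genes, 1.29% had a larger absolute log2 ratio, and 0.842% were over 2-fold higher in replicate 2. The 3 red cell markers were also higher in replicate 2, as were 3 of 4 fibroblast markers (median log2 ratio 0.47) and 5 of 6 smooth muscle markers (median 0.40). The smooth muscle markers Smtn and Cnn1 were at 0.0027 and -0.11. Their part in the difference of Srf was not tested.

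Myocd, the coactivator, was at 58.0 and 55.0 TPM (mean 56.5 ± 2.15, SD, n = 2), from 6297 and 6591 counts. Its log2 ratio was -0.05, and it did not share the difference of Srf. The ratio of Srf to Myocd TPM was 0.712 in replicate 1 and 1.60 in replicate 2. Myocd stood at a higher level than the related coactivators Mrtfa, at 10.4 and 7.35 TPM, and Mrtfb, at 15.0 and 12.6 TPM.

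The 3 histone deacetylases were all lower in replicate 2. Of all filtered genes, 49.6% had a ratio above 0, and 8.09% were over 1.5-fold lower. Hdac5, a repressor of MEF2 that leaves the nucleus on phosphorylation, was at 59.6 and 38.4 TPM (mean 49.0 ± 15.0, SD, n = 2), from 2638 and 2048 counts. Hdac4, a close relative, was at 19.1 and 13.96 TPM (mean 16.5 ± 3.61, SD, n = 2), from 1491 and 1336 counts. Hdac9, known as a repressor of MEF2 in cardiac hypertrophy and itself a MEF2 target, was at 12.9 and 6.45 TPM (mean 9.69 ± 4.58, SD, n = 2), from 1183 and 729 counts. Hdac9 was therefore the lowest of the expressed members in each library. Its log2 ratio was -0.81, or 1.76-fold, with a counting interval of -0.95 to -0.68. Those of Hdac5 and Hdac4 were -0.48 and -0.27, with intervals of -0.57 to -0.40 and -0.38 to -0.17. The sum of the 3 genes was 91.6 and 58.8 TPM, and the MEF2 sum was 2.22 and 3.46 times as large. These sums hold transcripts of all types. Of the Hdac5 level, only 13.4 TPM in replicate 1 and 7.91 in replicate 2 fell on protein-coding transcripts.

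Of the 8 members that passed the filter, 2 differed by over 1.5-fold, Srf higher and Hdac9 lower in replicate 2. Over all filtered genes 12.3% did, 4.22% higher and 8.09% lower. All 8 members had a mean of over 500 counts, and among all genes with a mean of 500 or more 3.39% did. Srf alone of the 8 differed by over 2-fold. The ratios of Mef2a, Mef2c and Mef2d were 0.23, -0.0008 and -0.0046 on the log2 scale. That of Mef2a had a counting interval of 0.20 to 0.27, so counting error does not cover it. The signs of Mef2c and Mef2d turned under other scalings, where neither exceeded 0.05 in size.

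**Figure D2:**
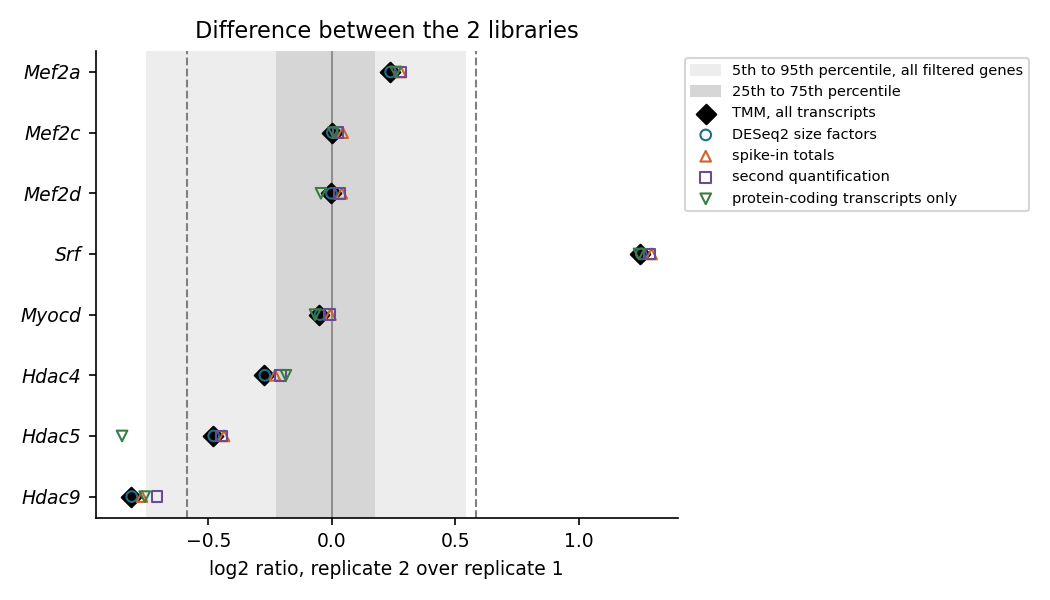
Log2 ratio of replicate 2 over replicate 1 for the 8 members that passed the filter; diamonds are TMM-scaled counts, other symbols alternative settings, grey bands the percentiles over 16271 genes and dashed lines 1.5-fold. Srf lies to the right of the band under every setting shown, and Hdac5 moves to -0.85 when only protein-coding transcripts are counted.

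Ordered by mean TPM, the genes ran from Mef2a through Srf, Myocd, Mef2d, Hdac5, Mef2c, Hdac4 and Hdac9 to Mef2b. Neighbours were held apart where both libraries gave the same order and the mean log2 ratio of their levels, with a pseudocount of 0.1, exceeded its SD. This was so for 4 of 8 pairs: Mef2a over Srf (0.79 ± 0.70), Mef2c over Hdac4 (1.47 ± 0.32), Hdac4 over Hdac9 (0.83 ± 0.39) and Hdac9 over Mef2b (5.53 ± 0.60; SD, n = 2). The adjacent pairs from Srf through Myocd, Mef2d and Hdac5 to Mef2c did not differ beyond their spread; genes that are not adjacent in the order were not compared. In the second quantification Mef2d over Hdac5 was apart as well, at 0.66 ± 0.39.

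The forms of the MEF2 transcripts differed by gene. Shares here are of the TPM of the coding transcripts that can be classed, as the authors' software assigned reads to whole transcripts; junction reads were not counted. Mef2a carried the upstream exon in 80.5% and 82.5% of its classed TPM (81.5% ± 1.37, SD, n = 2). Mef2d carried its upstream exon in 93.6% and 97.2% (95.4% ± 2.54). Mef2c was mixed, with the upstream exon in 41.1% and 46.7%, the downstream exon in 36.6% and 37.8%, and neither exon in 21.4% and 15.6%. Counted as reads and not per length, the upstream exon of Mef2c held 71.0% and 71.2% and the downstream exon 19.6% and 22.6%. The second quantification placed the upstream exon of Mef2c at 53.1% and 57.9% of TPM and 61.1% and 67.6% of counts.

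The short exon followed another order. It was included in 77.8% and 79.2% of Mef2a, in 53.3% and 52.4% of Mef2c and in 9.82% and 11.2% of Mef2d. In means these are 78.5% ± 0.975, 52.8% ± 0.651 and 10.5% ± 0.984 (SD, n = 2), so that the 3 genes did not overlap between libraries. In the second quantification the means were 76.3%, 51.8% and 10.6%. Counted as reads and not per length, mean inclusion was 89.3% ± 0.588 in Mef2a and 74.4% ± 0.91 in Mef2c (SD, n = 2). In Mef2d it was 3.86% and 4.27% of counts. The single Mef2d transcript that holds the exon is annotated with a length of 1791 bases, against 5401 for the leading one. The second quantification gave mean count shares of 83.8% ± 3.15 in Mef2a, 63.7% ± 4.46 in Mef2c and 3.86% ± 0.251 in Mef2d. The order of the genes was thus the same in both units, but the level in each of the 3 genes depended on the unit.

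**Figure D3:**
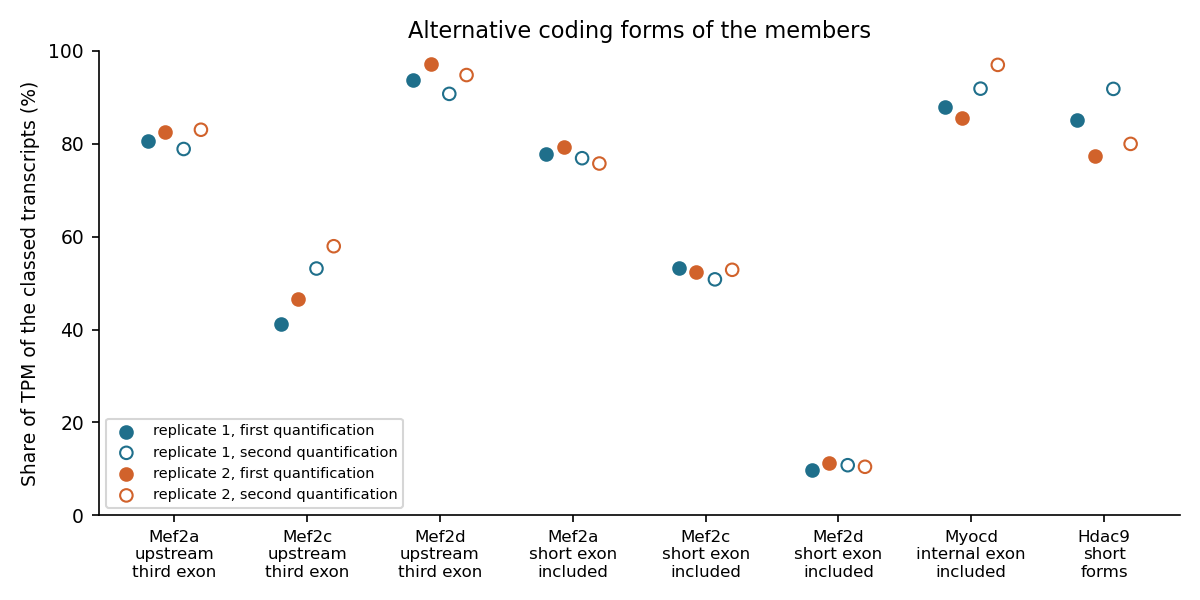
Share of TPM held by alternative coding forms of Mef2a, Mef2c, Mef2d, Myocd and Hdac9, by library (colour) and quantification (filled, first; open, second). Short-exon inclusion is near 79% in Mef2a, 53% in Mef2c and 11% in Mef2d in the first quantification.

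Mef2a-208, which holds the upstream and the short exon and codes for 498 amino acids, was the leading Mef2a transcript with 58.0% ± 2.15 of the gene's TPM. Mef2d-201, without the short exon, led Mef2d with 60.3% ± 3.59. Mef2c has 31 annotated transcripts, and its leading one, Mef2c-212, took 28.4% ± 3.59. The second quantification gave Mef2c-212 16.4% and set Mef2a-201 at 0, where the first had given it 16.3 and 16.9 TPM.

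Srf and Myocd were each dominated by 1 coding transcript. Srf-201, coding for 504 amino acids, held 79.9% ± 1.96 of Srf TPM and was at 32.4 TPM in replicate 1 and 71.6 in replicate 2, so that the difference between the libraries lay in the coding messenger RNA. Myocd-203, coding for 983 amino acids, held 70.7% ± 4.26. It includes a coding exon of 144 bases at chr11:65184488-65184631 that Myocd-202 skips. This exon was included in 87.9% and 85.6% of the TPM of the complete coding forms. The shorter form that starts in a later exon, Myocd-201, was listed at 0 in both libraries; the second quantification gave such forms 1.52%. The long start, known from cardiac muscle, thus held nearly all of the Myocd coding TPM.

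Hdac9 occurs as long forms with the deacetylase domain and as short forms that stop before it, known as MITR, which keep the MEF2-binding part and repress through partners. The short forms end with 16 codons of their own. The junction is shown because it separates these products; the lower-case bases before the capitals are shared with the long forms, the capitals are the bases that only the short forms translate, and the last codon is the stop:

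Hdac9 short-form end, chr12:34373827-34373907, minus strand: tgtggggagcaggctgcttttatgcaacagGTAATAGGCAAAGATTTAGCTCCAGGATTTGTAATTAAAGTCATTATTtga

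The short forms were at 9.53 TPM in replicate 1 and 4.64 in replicate 2, and the long forms at 1.68 and 1.36 TPM. Their share of the complete coding forms was 85.0% and 77.3% (81.2% ± 5.43, SD, n = 2). The lower level of Hdac9 in replicate 2 thus lay chiefly in the short forms. In the second quantification the short forms were at 10.5 and 5.26 TPM and the long forms at 0.943 and 1.32 TPM, so the direction for the long forms is not settled. Hdac9-201, a short form of 588 codons, was the leading transcript, and Hdac9-205, a long form of 1064 codons, was at 0.71 and 0.90 TPM.

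In Hdac5 less of the signal lay on coding transcripts than in the other expressed members. Of its TPM, 22.4% and 20.6% fell on protein-coding transcripts, whereas 61.5% and 55.5% fell on transcripts annotated as retained introns and 14.2% and 20.3% on 1 transcript annotated for nonsense-mediated decay, Hdac5-205. Of its counts, which are not per length, coding transcripts held 44.2% and 35.1%, retained introns 26.1% and 22.9% and Hdac5-205 29.3% and 41.4%. That transcript has an exon of 112 bases at chr11:102213925-102214036 in no coding Hdac5 transcript, and an annotated coding sequence of 64 codons against 1115 in Hdac5-204. Hdac5-204, the main coding transcript, was at 11.1 TPM in replicate 1 and 4.28 in replicate 2, while Hdac5-205 was at 8.44 and 7.79 TPM. On coding transcripts alone Hdac5 was at 10.6 ± 3.87 TPM and Hdac4 at 14.2 ± 1.53, so that the order of these genes reverses. The reversal rests on Hdac4-205, an incomplete model at 6.98 and 6.42 TPM, without which Hdac5 stays higher in both libraries. On coding transcripts the log2 ratio of Hdac5 was -0.85. Members over 1.5-fold apart were then 3, Hdac5 with Srf and Hdac9, where 9.75% of all genes were. In the second quantification coding transcripts held 33.3% and 31.1% of Hdac5 TPM and 55.2% and 43.9% of its counts, and retained introns 14.3% and 10.3% of its counts.

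In the other 7 expressed members, 79.9% to 94.1% of TPM fell on protein-coding transcripts in the first quantification. The second gave lower shares in 1 or both libraries for Hdac4 (74.7% and 70.1%), Hdac9 (73.0% and 80.6%) and Myocd (78.1% and 85.4%). Hdac4-205, an incomplete model of 849 bases, led Hdac4 in TPM with 41.3% ± 6.64, while the complete Hdac4-202 of 8100 bases held 70.3% ± 6.50 of the counts. The retained-intron share was lower in replicate 2 in all 7 members that had one; so it was in 70.1% of all genes with such a share, and in 6 of the 7 members in the second quantification. Over whole libraries, retained-intron transcripts took 3.08% and 2.43% of counts.

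**Figure D4:**
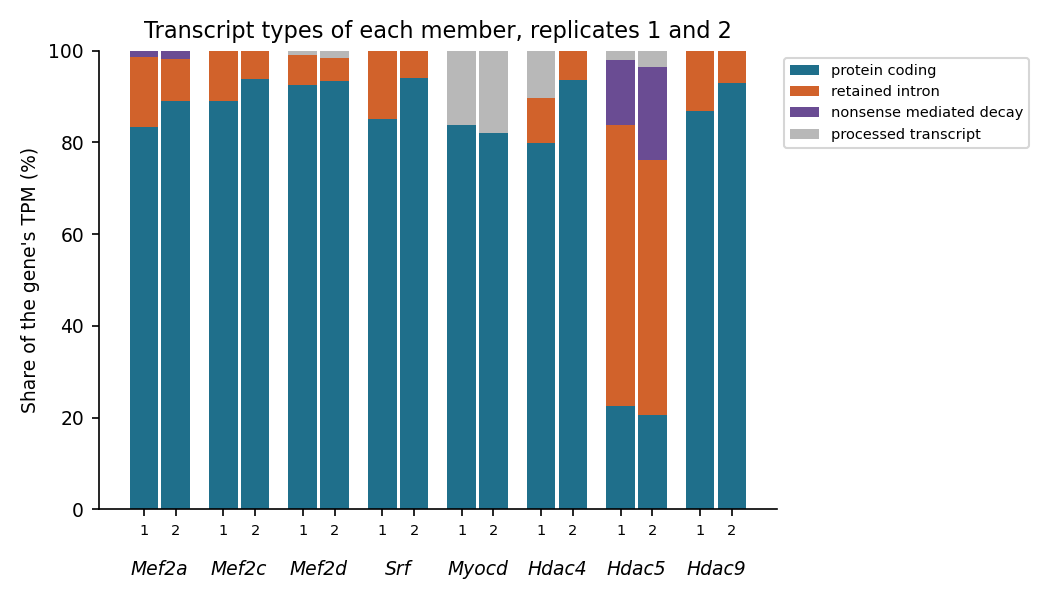
Share of each member's TPM, in percent, by annotated transcript type, with the 2 bars of a gene for replicates 1 and 2. In the first quantification, which is shown, coding transcripts hold 79.9% or more in every gene but Hdac5, where they hold 22.4% and 20.6%.

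The promoters in the RefSeq set (GRCm38.p6, 250 bases before to 50 after the start) covered 8 members with 11 promoters; none is given for Myocd. They were searched on both strands for the CArG box and for the MEF2 site, each a motif of 10 bases that reads the same on both strands. A CArG box was present in the promoter of Srf alone, and in 1.63% of all 32851 promoters. Srf has 2 of them, 10 bases apart, which start 82 and 62 bases before the RefSeq start of the promoter set; the GENCODE gene given above starts further upstream. They are shown because Srf is itself known as an SRF target and differed between the libraries; capitals mark the boxes:

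Srf promoter, chr17:46556183-46556282, minus strand: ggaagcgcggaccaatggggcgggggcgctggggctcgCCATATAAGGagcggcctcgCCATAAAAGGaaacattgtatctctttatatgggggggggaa

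A MEF2 site was found in the promoters of Mef2a and Hdac5, and in 3.19% of all promoters. In the lines below it is in capitals within the run of bases, and the words around the bases are labels and not sequence:

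Mef2a, chr7:67372841-67372870, minus strand: gene   motif    
Mef2a  MEF2 site    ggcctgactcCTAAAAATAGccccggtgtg
Name: sequence, dtype: object
Hdac5, chr11:102230173-102230202, minus strand: gene   motif    
Hdac5  MEF2 site    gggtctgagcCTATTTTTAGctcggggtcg
Name: sequence, dtype: object

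A match describes letters and not binding. CArG boxes were also present in 8 of 24 promoters of genes known as SRF targets, belonging to Acta1, Actc1, Fhl1, Fhl2, Myl9, Srf and Vcl. MEF2 sites were present in 4 of 19 promoters of genes known as MEF2 targets, belonging to Fhl2, Jun, Srpk3 and Xirp2.

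The genes that act with the members were given by 9 lists. Of their 136 distinct genes 131 were expressed, where 53.8% of nuclear protein-coding genes were. That share also belongs beside the number of expressed genes in each list below. Of the 134 list genes that passed the filter, 18 differed by over 1.5-fold between the libraries, 13.4% against 12.3% of all filtered genes. Among all genes with a mean of 500 counts or more the share was 3.39%. Many list genes have such counts, so 12.3% is not a matched background, and the list genes were not split by count. The median log2 ratio over all filtered genes was -0.0033.

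All 8 other histone deacetylases were expressed. Hdac2, a class I enzyme, was the highest at 43.95 and 43.5 TPM, followed by Hdac7, the remaining class IIa gene, at 32.1 and 21.7 TPM and Hdac3, a class I enzyme, at 26.2 and 24.5 TPM. The median log2 ratio of this list was -0.16, with 5 of 8 genes lower in replicate 2. Hdac7 had a log2 ratio of -0.35, and the genes of other classes that were lower were Hdac6 at -0.19, Hdac8 at -0.13, Hdac10 at -0.28 and Hdac11 at -0.67. Over all filtered genes 49.6% had a ratio above 0.

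Of 18 kinases that act on class IIa deacetylases, 17 were expressed, and the median log2 ratio was 0.01. Camk2d, the main cardiac CaMKII gene, was at 95.3 and 88.1 TPM, Prkaa2, an AMPK subunit, at 31.3 and 37.7 TPM and Camk1 at 32.5 and 30.9 TPM. Camk4 was at 0.39 and 0.41 TPM. Sik1, a salt-inducible kinase, was at 11.1 TPM in replicate 1 and 31.2 in replicate 2, a log2 ratio of 1.69. It was the only gene in this list past 1.5-fold, where 12.3% of all filtered genes were. The related Sik2 and Sik3 had ratios of -0.08 and 0.17. Of the 14-3-3 genes, 6 of 7 were expressed, with Ywhae the highest at 349 and 347 TPM, then Ywhaz at 120 and 133 and Ywhag at 125 and 123. All 7 had a ratio above 0, with a median of 0.17, where 49.6% of all filtered genes had a ratio above 0. Sfn, at 0.38 and 0.55 TPM, had only 14 counts in replicate 1 and 24 in replicate 2.

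Of 23 cofactors of MEF2 and the deacetylases, 22 were expressed. The corepressor gene Ncor1 was at 71.5 and 63.5 TPM, and Smarcd3, a subunit of the BAF complex of heart, at 48.6 and 37.7 TPM. Vgll2 was listed at 0. Of 13 calcineurin and NFAT genes 12 were expressed. Myoz2, a Z-disc protein that binds calcineurin, was at 397 and 353 TPM, and Rcan2 and Rcan1, which inhibit calcineurin, were at 84.0 and 74.7 and at 34.8 and 53.3 TPM. Rcan1, at a log2 ratio of 0.76, was the 1 gene of this list past 1.5-fold, where 12.3% of all filtered genes were. Ppp3r2 had 1 count in replicate 1 and 0 in replicate 2.

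Around SRF, all 15 partners and coactivators were expressed. Csrp3, a Z-disc LIM protein, was at 655 and 613 TPM, Fhl2 at 380 and 528, and Hopx, which restrains SRF, at 186 and 189. Of the 15, 12 had a ratio above 0 (median 0.09), where 49.6% of all filtered genes did. In replicate 2, 2 were over 1.5-fold higher, against 4.22% of all filtered genes. These were Fhl2 at 0.61 and Klf4, a repressor of smooth muscle genes, at 0.95. All 12 genes of actin-MRTF signalling were expressed, and Actb (962 and 984 TPM), Cfl1 (286 and 302) and Cfl2 (214 and 217) led. None of the 12 was past 1.5-fold, where 12.3% of all filtered genes were.

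All 25 genes known as SRF targets were expressed. Actc1, cardiac alpha-actin, was at 6963 and 7924 TPM, Tpm1 at 3508 and 3402 TPM and Nppa, atrial natriuretic peptide, at 1620 and 665 TPM. They differed from each other in direction. In replicate 2, 16 had a ratio above 0 and 9 below, with a median of 0.12 (Smtn, at 0.0027, turned below 0 in the second quantification), and 5 of 25 were over 1.5-fold higher and 5 over 1.5-fold lower, where 4.22% and 8.09% of all filtered genes were. Acta1, skeletal alpha-actin, was at 539 and 155 TPM, a log2 ratio of -1.67, and Nppa was at -1.15. Acta2, smooth muscle alpha-actin, was at 341 and 631 TPM, a ratio of 0.97, and 1.01 with spike-in scaling and 1.02 in the second quantification, past 2-fold; the immediate early genes Fos and Egr1 were at 0.12 and -0.73. Srf is counted in this list. Acta2 is also a smooth muscle marker, and the part of that marker list was not tested.

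Of 20 genes known as MEF2 targets 19 were expressed, with Myh6 (8663 and 7208 TPM), Ckm (1459 and 1292 TPM) and Nppa the highest. Kcnma1 was at 0.23 and 0.20 TPM. The median ratio was -0.05, with 8 above 0 and 12 below, where 49.6% of all filtered genes were above 0. Smyd1, at -0.01, turned above 0 in the second quantification. In replicate 2, 2 were over 1.5-fold higher, Nr4a1 and Fhl2 (0.61), and 2 over 1.5-fold lower, Nppa (-1.15) and Hdac9 (-0.81). Of all filtered genes 4.22% were over 1.5-fold higher and 8.09% lower. Nr4a1, an immediate early nuclear receptor gene that MEF2 controls in lymphocytes, was at 6.79 TPM in replicate 1 and 20.2 in replicate 2, a log2 ratio of 1.96 and the largest in the 9 lists. Hdac9 and Myocd are counted in this list.

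**Figure D5:**
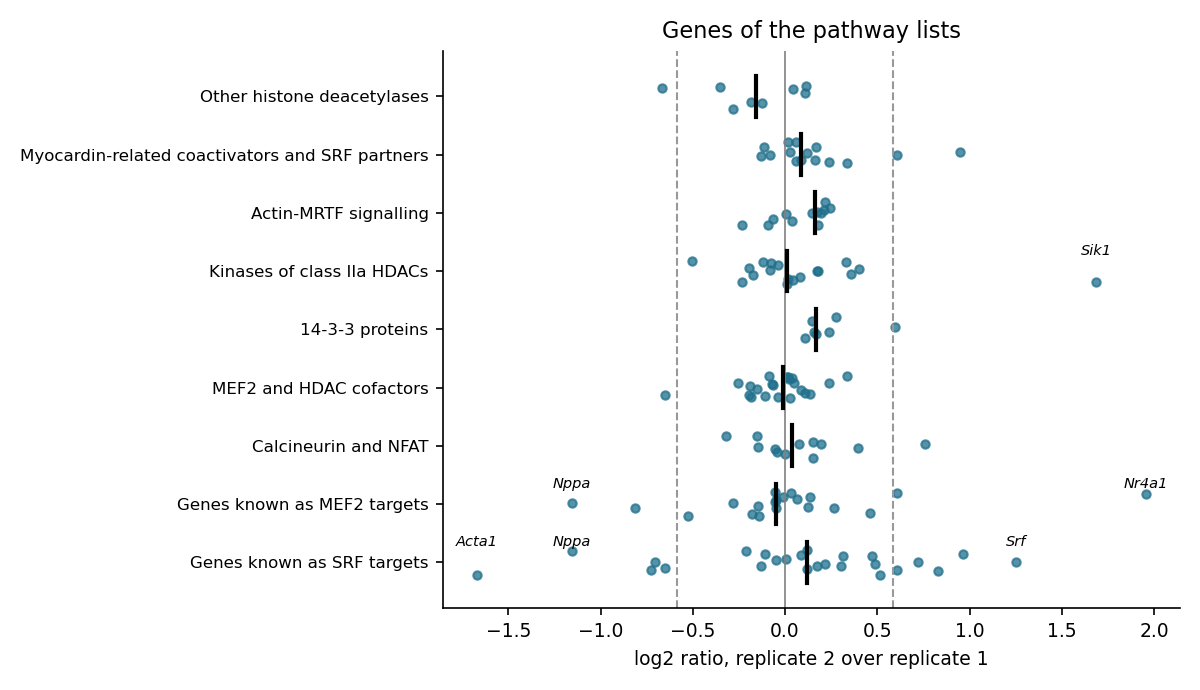
Log2 ratio of replicate 2 over replicate 1 for each filtered gene of the 9 lists, with black bars for list medians and dashed lines at 1.5-fold; points are spread vertically for legibility. Sik1, Nr4a1 and Srf lie past 2-fold on the right, Acta1 and Nppa on the left.

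Nuclear protein-coding genes held 45.2% and 43.2% of all TPM, so levels rescaled over them are higher, for example 237 TPM for Mef2a and 148 TPM for Srf. Mef2b overlaps Borcs8 on the same strand (13.0 and 12.2 TPM), and Mef2a overlaps Lysmd4 on the other strand (7.29 and 6.06 TPM) and 2 models of unsettled type on its own; how reads were shared out there is not given in the sources used here.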

How the data were processed

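Total RNA (300 ng a library) was sequenced from heart in 2 libraries after ribosomal RNA reduction with ERCC spike-ins, per the labels. The authors made expected counts, TPM values and the percent of a gene's TPM per transcript from a transcriptome alignment (mm10, GENCODE M21), per the notes deposited with the files; the column names are those of RSEM. A second transcript table of estimated counts and TPM, the second quantification, was deposited by the authors from the reads of 1 read file; its TPM were summed per gene. Aligner, tool versions and strand setting are not given in the sources used here.

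Expected counts were rounded, filtered (filterByExpr) and scaled with TMM in edgeR 4.0.16 (R 4.3.3); log2 ratios of replicate 2 over replicate 1 used a prior count of 2 and were checked on simulated data. DESeq2 1.42.0 size factors, spike-in totals, no filter and the second quantification were alternatives. Counting on protein-coding transcripts only was added after seeing the data. Intervals are exact binomial (95%) and, like the limit of 3 counts that a count of 0 allows, cover counting error only, since the reads carry no stated molecular identifiers. Rows that name no gene held 2 and 4 counts.

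The members and lists were chosen with earlier results of these data known. Beside the 9 members, the text names from every list the top 3 by mean TPM, as many as 4 that stay under a TPM of 1 in both libraries and all past 2-fold; other list genes named were chosen after their values were seen. A list gene that this rule would name and an exon sequence are not reported here. Exon classes come from GENCODE coding blocks, and promoters from RefSeq. A comparison of protein sequences was planned and was not made here.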

Additional observations from a re-analysis of the deposited data

How the results depend on the processing

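No paired analysis was possible because the labels give 1 group, so that a replicate number is shared by no other group. The 8 expressed members, and the 131 expressed list genes, were the same in number with a TPM threshold of 0.5, in the second quantification and without either replicate. Members over 1.5-fold apart were 2 under DESeq2 size factors, spike-in totals, no filter and the second quantification, and 3 on protein-coding transcripts only. Neighbouring pairs held apart were 4 with a pseudocount of 1 and 5 in the second quantification, where the mean log2 ratio of Hdac5 over Mef2c, 0.08 in the first, was -0.45; no value held apart or past 1.5-fold changed sign. Mean TPM shifted beyond 1 SD in 6 of 9 members in the second quantification, where the median gene was 1.36 times as high, and in 9 of 9 when rescaled over protein-coding genes; the share of the leading transcript shifted beyond 1 SD in 8 of 8. With 2 libraries the SD is itself poorly known.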
